A study of Caenorhabditis elegans with 4 samples.

Results

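The col genes of *Caenorhabditis elegans* were described for their occupancy by HPL-2, a worm protein of the heterochromatin protein 1 family, in wild-type larvae. They were taken as all genes with a symbol made of col and a number in a RefSeq gene table (assembly WBcel235), which gave 159 of the 46890 genes on the 6 chromosomes. Of these, 156 were annotated as protein-coding and 3 (col-66, col-136 and col-182) as pseudogenes. Membership rests on the symbol alone, since protein sequences were not used here.

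Collagens of the worm cuticle are small secreted proteins with runs of the repeat glycine-X-Y. The epidermis makes them in bursts before each moult, hydroxylates and trims them, and builds them into the cuticle, the flexible outer skeleton of the animal. Many family members are expressed in a particular larval stage or in the adult. HP1 proteins bind histone H3 methylated at lysine 9 through a chromodomain and are best known from silent chromatin.

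Chromatin immunoprecipitation and sequencing was done on worms of the N2 strain (wild type), of both sexes (males and hermaphrodites together), grown at 20 °C and harvested at the L3 larval stage. The groups are 2 ChIP libraries made with SDQ2340, a rabbit polyclonal antibody to HPL-2, and 2 input libraries of DNA without precipitation, which were not analysed here. Chromatin was cross-linked with EGS and formaldehyde. Whole animals were used, so the epidermis, where cuticle collagens are made, cannot be told apart from other tissues. The ChIP libraries gave 20533 peaks in replicate 1 and 16490 in replicate 2, and a list for the whole series held 23530. Peak lists carry no read depth, and a gene without a peak is not thereby shown to be free of HPL-2.

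A gene was called bound when its window, the gene body plus 500 bp on both sides, overlapped a peak of the series-level list and of both replicate lists by at least 1 bp. The peaks of the 3 lists had to meet the same window but not each other. Both sides were used because the gene table gives no strand, so the upstream side is not known. Comparison genes were the 19815 other protein-coding genes. Because HPL-2 peaks are denser on chromosome arms, each chromosome was cut into 3 equal parts (left arm, centre, right arm) and the comparison genes were weighted to the number of collagen genes in each part. With 2 ChIP libraries there is no test over samples, and none was made over genes. Wilson 95% intervals on shares of genes cover counting error only and are too narrow where neighbouring genes share a peak.

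By this call 56 of 159 collagen genes were bound, or 35.2% (Wilson interval 28.2 to 42.9%), beside a background of 24.6% over all other protein-coding genes and 22.6% over those of the same chromosome parts. Of the 56 genes, 49 were bound within the gene body alone, so their call holds whichever side is upstream, and the other 7 (col-2, col-45, col-66, col-101, col-109, col-110 and col-166) needed the sequence beside the gene. In gene bodies alone the share was 30.8% of collagen genes, with a background of 17.7%. Collagen genes are short, with a median span of 1219 bp against 2020 bp for other protein-coding genes, and a short window meets a peak less easily. Against genes of the same chromosome parts with spans in the whole range of the collagen genes (521 to 9946 bp), 35.2% compares with 20.8%. Against those with spans between the quartiles of the collagen genes (1051 to 1595.5 bp), a comparison added after the data were seen that still takes all 159 collagen genes, it compares with 14%.

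The replicate lists gave very different pictures of the collagen genes. In replicate 2, 143 of 159 collagen genes had a peak in their window (89.9%, interval 84.3 to 93.7%), beside a background of 30.4% and 28.0% in the same chromosome parts. In replicate 1, 58 had one (36.5%, interval 29.4 to 44.2%), beside a background of 37% and 35.3% in the same parts. The difference from comparison genes was thus 61.9 percentage points in replicate 2 and 1.15 in replicate 1, and the SD of these 2 values, 43.0, is larger than their mean, 31.5. In a window of the same length for every gene, 1 kb round the gene middle (added after the data were seen), replicate 1 had a peak in 26.4% of collagen genes, against 15.4% of comparison genes, a difference of 11 points. In replicate 2 the shares in that window were 85.5% and 12.8%, a difference of 72.7 points. With 2 kb the differences were 11.4 points in replicate 1 and 70.4 in replicate 2. The near equality in replicate 1 thus held for whole genes with their flanks and not for windows of equal length. In the series-level list 119 collagen genes had a peak (74.8%, interval 67.6 to 80.9%), beside a background of 41.4%.

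The bound call was therefore set almost wholly by replicate 1. Of the 58 collagen genes with a replicate 1 peak, 56 were bound, while 87 collagen genes had a peak in replicate 2 and none in replicate 1. The reverse held for 2 collagen genes, col-38 and col-128. Among other protein-coding genes the balance lay the other way, with 1131 genes seen in replicate 2 and not in replicate 1, and 2456 in replicate 1 and not in replicate 2. Asking for the series-level list and replicate 2 alone, the difference in bound share between collagen and comparison genes would be 48.6 percentage points, and with the series-level list and replicate 1 alone 1.58, against 12.6 with all 3 lists.

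**Figure D1:**
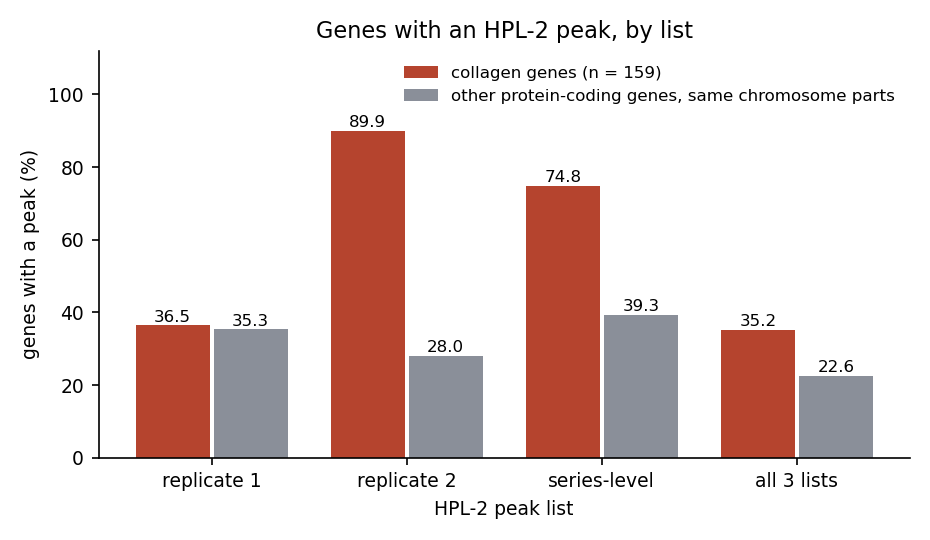
Share of genes (%) with an HPL-2 peak in the gene body plus 500 bp on both sides, for collagen genes (red) and for other protein-coding genes weighted to the same chromosome parts (grey), by peak list. Collagen genes stand at 36.5% in replicate 1 and 89.9% in replicate 2, while comparison genes stand at 35.3% and 28.0%.

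Peaks on collagen genes lay mostly inside the gene, less so in replicate 1. At the middle of the gene, 59.7% of collagen genes had a replicate 2 peak, against 4.83% of comparison genes. In replicate 1 the values at that point were 18.2% of collagen genes and 6.38% of comparison genes, and in the series-level list 49.7% and 7.69%. At a distance of 1 kb on either side, collagen genes had 5.66% and 4.40% in replicate 2 and 5.03% and 6.29% in replicate 1, so a narrow maximum over the gene was present in both lists and differed in height. The peak with most bases in the window had its centre within the gene body in 140 of 143 collagen genes in replicate 2, in 46 of 58 in replicate 1 and in 116 of 119 in the series-level list. It lay wholly inside the body in 132 genes in replicate 2, 39 in replicate 1 and 106 in the series-level list. These counts were not made for comparison genes. The median width of this peak was 599 bp in replicate 2 and 323 bp in replicate 1.

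**Figure D2:**
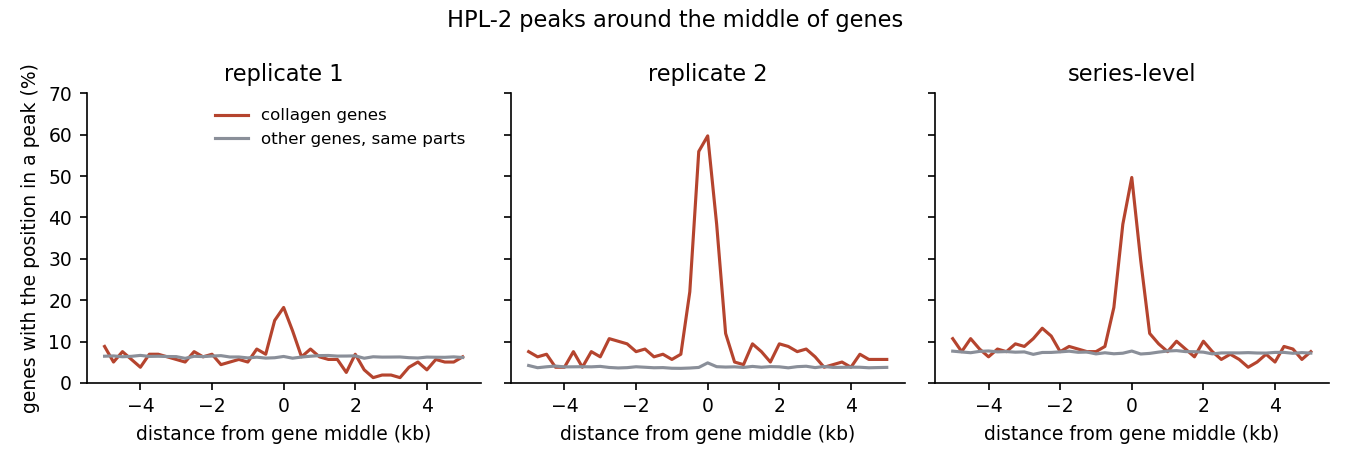
Share of genes (%) whose position at a given distance from the gene middle (kb) lies in an HPL-2 peak, for collagen genes (red) and other protein-coding genes of the same chromosome parts (grey), in replicate 1, replicate 2 and the series-level list. The maximum over the middle of collagen genes is 18.2% in replicate 1, 59.7% in replicate 2 and 49.7% in the series-level list, and the comparison genes stay near their own level throughout.

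The sequence around collagen genes carried little of this excess. In replicate 2, peaks covered 43.0% of the gene bodies of collagen genes on average and 6.21% of the bases from 1 to 5 kb outside them. The same values for comparison genes were 4.15% and 3.82%. In replicate 1, peaks covered 13.2% of collagen gene bodies and 4.99% of their surroundings, against 5.91% and 6.17% for comparison genes. Gene by gene, the body was more covered than its surroundings in 140 of 159 collagen genes in replicate 2 (88.1%, against 17.3% of other genes) and less covered in 8 (5.03%, against 37.1%). In replicate 1 it was more covered in 48 (30.2%, against 17.9% of other genes), less covered in 46 (28.9%, against 44.5%) and equal in 65.

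Peaks on collagen genes ranked low by score in replicate 1 and the series-level list, and above the middle of the list in replicate 2. The score is the authors' own value, on a scale that is not stated, and is used here only as a rank within a list. The main replicate 2 peak of a collagen gene stood at a median percentile of 60.1 of that list. In bound genes it stood at 69.7 and in those not bound at 50.4. The main replicate 1 peak stood at 29.6. In the series-level list the main peak stood at 26.6, with 51.1 for the bound genes and 18 for those not bound. Such percentiles were not computed for other genes. The highest series-level score in the window had a median of 15.3 in the 56 bound collagen genes and 35.5 in the 4875 other bound genes. It reached the median of the list in 60.7% of bound collagen genes and in 87.0% of other bound genes. Bound collagen genes had a median span of 1196 bp and other bound genes 3338 bp, and a wider window can hold more peaks. The highest scores were not matched for span or chromosome part.

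Raising the score threshold removed the excess in the share of collagen genes bound in all 3 lists, but not that in bases covered. With each list cut to peaks scoring at or above its median, 13.8% of collagen genes were bound, against 13.4% of genes in the same chromosome parts. Series-level peaks cut in this way covered 7.86% of collagen window bases on average, against 4.99% in comparison genes. Without the cut these values were 20.4% and 7.50%. Shares of genes at these cuts were not matched for gene span. Within single lists cut to their 10000 highest-scoring peaks, a cut chosen after the data were seen, 110 collagen genes had a peak in replicate 2 (69.2%, against 20.3% of comparison genes) and 24 had one in replicate 1 (15.1%, against 23.3%). In the series-level list 29 had one (18.2%, against 23.9%). At 5000 peaks the counts were 44 in replicate 2 (27.7%, against 11.3%) and 17 in replicate 1 (10.7%, against 13.4%). At 2000 peaks they were close, with 11 in replicate 2 (6.92%, against 4.95%) and 9 in replicate 1 (5.66%, against 5.40%). The gap between the replicates was thus present at equal list length at the longer cuts and small among the highest-scoring peaks, and its cause was not tested.

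Collagen genes on chromosome arms were bound more often than those in the centres. The call was met by 39 of 78 collagen genes on arms (50.0%, interval 39.2 to 60.8%) and by 17 of 81 in centres (21.0%, interval 13.5 to 31.1%). Other protein-coding genes of the same parts had 34.2% on arms and 11.5% in centres. In replicate 2 every one of the 78 collagen genes on an arm had a peak, as did 65 of the 81 in a centre. These shares exceeded those of other protein-coding genes of the same parts by 58.99 percentage points on arms and 64.74 in centres. In replicate 1 the counts were 39 on arms and 19 in centres. The same differences in replicate 1 were 3.42 points on arms and -1.03 in centres, so its shares lay near the background in both. Collagen genes as a family lay on arms less often than other genes did, at 49.1% against 62.3%.

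The 14 collagen genes with no peak in any list (8.8%, against 55.1% of other protein-coding genes) all lay in chromosome centres. On chromosome I they were col-53, col-56, col-58, col-61 and col-64, on IV col-113, col-115, col-120 and col-121, on V col-148, col-153 and col-158, and on X col-173 and col-177. A further 26 collagen genes (16.4%, against 3.06% of other protein-coding genes) had a replicate 2 peak and nothing in the other lists, 10 of them on arms. Another 61 (38.4%, against 2.65%) had a peak in replicate 2 and the series-level list without one in replicate 1.

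**Figure D3:**
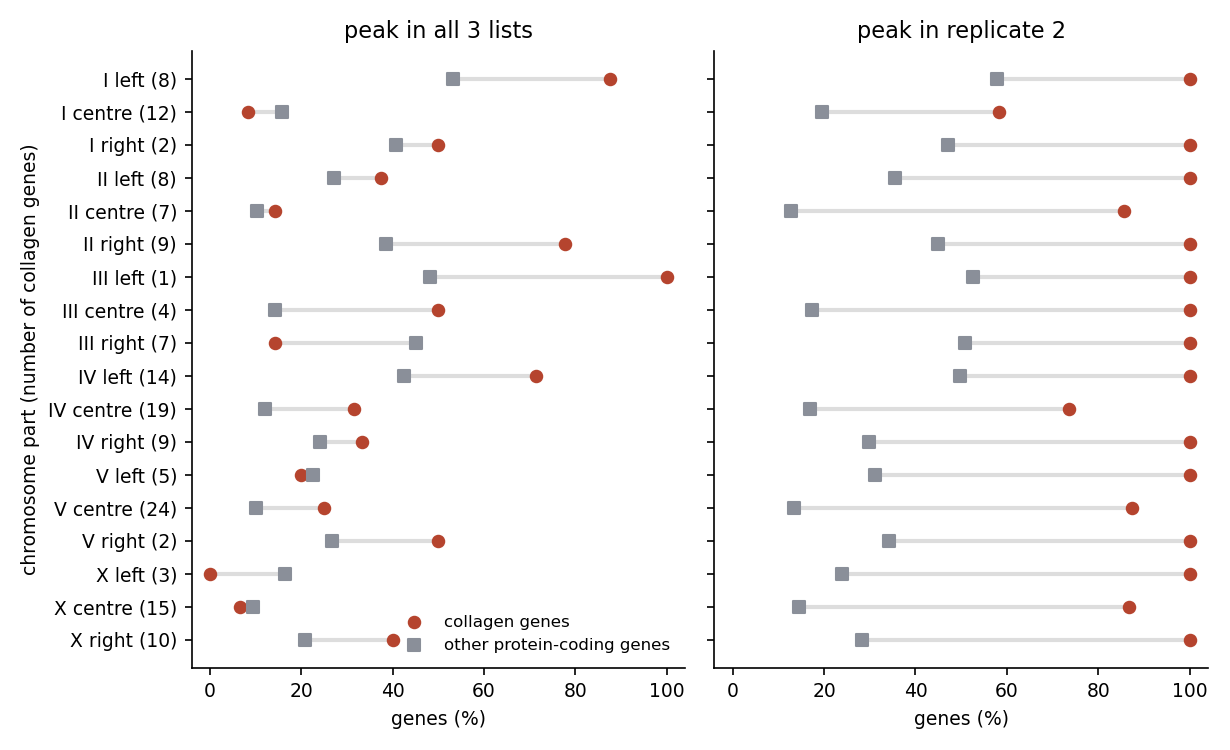
Share of genes (%) bound in all 3 lists (left panel) and with a replicate 2 peak (right panel), for collagen genes (red circles) and other protein-coding genes (grey squares) in each of 3 equal parts of the 6 chromosomes, with the number of collagen genes in brackets. In the left panel the collagen share is the higher one in 13 of 18 parts and the lower one in 5, and in the right panel it is the higher one in every part.

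By chromosome, the bound share of collagen genes exceeded that of genes in the same parts on 5 of 6. On chromosome IV, which holds the most collagen genes, 19 of 42 were bound (45.2%, against 24.7%), and on II 11 of 24 (45.8%, against 26.5%). Chromosome V had 8 of 31 (25.8%, against 13.1%), chromosome I 9 of 22 (40.9%, against 31.7%) and X 5 of 28 (17.9%, against 14.2%). Chromosome III had 4 of 12 (33.3%, against 35.1%). In replicate 2 the difference was positive on all 6 chromosomes, from 41.2 percentage points on I to 72.7 on V. In replicate 1 it was positive on II, IV and V (11.9, 11.1 and 1.92 points) and negative on I, III and X (-8.40, -17.3 and -8.37 points).

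Single chromosome parts ranged widely. On the left arm of IV, 10 of 14 collagen genes were bound (71.4%, against 42.4% of other genes there), and on the left arm of I 7 of 8 (87.5%, against 53.3%). The right arm of II had 7 of 9 (77.8%, against 38.5%). The right arm of III stood out in the opposite direction, with 1 of 7 collagen genes bound (14.3%, against 45.2%), although all 7 had a replicate 2 peak. The centre of V, with 24 collagen genes the largest set, had 6 bound (25%, against 10.0%) and 87.5% with a replicate 2 peak.

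The most heavily covered bound gene was col-48, on the left arm of I. Its whole window lay in peaks of the series-level list (100% of bases) and of replicate 1 (100%), and 88.9% in replicate 2. The peak there ran from 3009708 to 3012733 in the series-level list (3026 bp, WS220) and also met another protein-coding gene. Next was col-42 on the right arm of V, with 83.4% of its window in peaks of replicate 1, 57.7% in those of replicate 2 and 84.7% in those of the series-level list. Its series-level peak ran from 18638027 to 18639812 on V (1786 bp) and met no other coding gene. These were the only 2 of the 10 most covered bound genes with over 50% of the window in both replicate lists.

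The left arm of IV supplied 5 of the 10 most covered genes. col-103 had 74.3% of its window in series-level peaks, 73.3% in replicate 1 peaks and 41.8% in replicate 2 peaks. col-104 had 64.2%, 63.1% and 48.8% in the same order of lists. In col-106 the order of the replicates was turned, with 42.5% in replicate 1 and 73.1% in replicate 2 (60.4% in the series-level list). col-102 differed more between the replicates, with 16.8% in replicate 1 and 51.0% in replicate 2 (59.4% in the series-level list), while col-107 had 47.7% and 45.7% (58.1%).

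The other 3 of these 10 genes lay elsewhere. col-119 was the only one in a chromosome centre, that of IV, with a series-level peak from 8978947 to 8980171 (1225 bp) and coverage of 63.2% in replicate 1 and 41.6% in replicate 2. col-71 on the left arm of II had 54.8% in replicate 1 and 44.2% in replicate 2. col-87 on the right arm of II held the highest score of these genes (85.52, series-level), under a peak of 2469 bp from 14089546 to 14092014 that also met another coding gene. In all, 12 of the 56 bound collagen genes (21.4%) had over 50% of their window in series-level peaks, against 15.5% of other bound genes. These shares were not matched for chromosome part or span (median 1196 bp against 3338 bp), and a short window is more easily filled. For 21 of the 56 bound collagen genes (37.5%), a series-level peak in the window also met another protein-coding gene. Such a peak cannot be given to the collagen gene alone. Sharing of this kind was not counted for other bound genes. Of all 159 collagen windows, 66.0% met another protein-coding gene.

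At the other end, 5 bound genes had the least coverage. col-186 on the right arm of X had 5.17% of its window in series-level peaks, 4.52% in replicate 1 and 8.47% in replicate 2. col-99, which encodes a collagen with a transmembrane segment and has the longest span of the family (9946 bp), had 6.07%, with 2.34% in replicate 1 and 8.43% in replicate 2. col-135 on the right arm of IV had 6.52% in series-level peaks and 7.03% in replicate 1, but 41.4% in replicate 2, under a peak of 1302 bp. The replicate 1 peak of col-135 overlapped neither its replicate 2 peak nor its series-level peak. col-54 in the centre of I had 11.2% and col-110 on the left arm of IV 11.9% in the series-level list. The replicate peaks of col-110 did not overlap each other either.

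**Figure D4:**
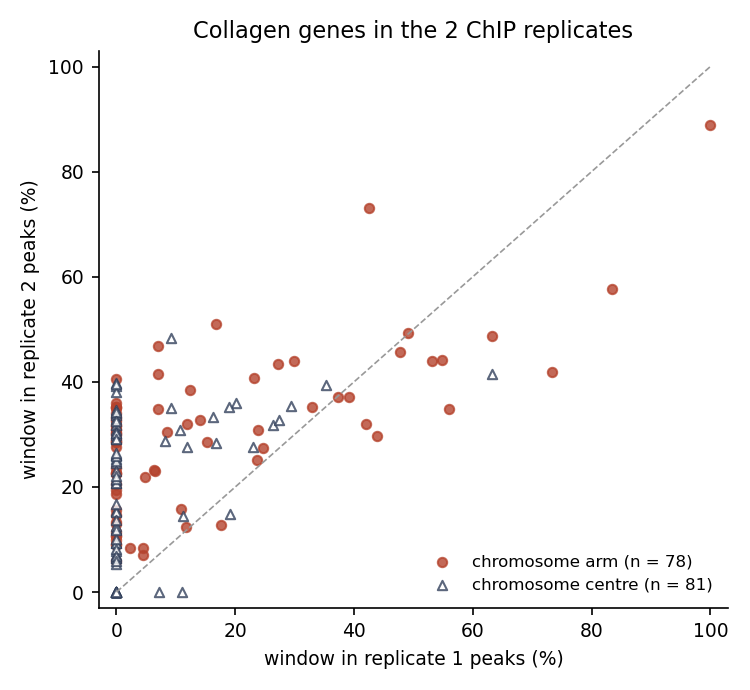
Share of the window of each collagen gene in replicate 1 peaks (x axis, %) and replicate 2 peaks (y axis, %), for genes on chromosome arms (filled circles, n = 78) and in centres (open triangles, n = 81); the dashed line marks equal shares. A column of genes stands at 0 in replicate 1 with up to 40.5% of the window in replicate 2, and the highest gene on both axes is col-48.

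Even among bound collagen genes replicate 2 covered more bases. It covered more of the window than replicate 1 in 41 of the 56 and less in 15. In the 4875 other bound genes replicate 2 covered more in 25.4% and less in 74.3%. The median share of the window in replicate 2 peaks was 34.0% in bound collagen genes, and in those not bound it was 21.6%. The call itself asks for a replicate 2 peak, so part of this difference is set by the rule. In other protein-coding genes, not matched for span, the medians were 10.1% (bound) and 0% (not bound).

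Collagen genes not bound could still be well covered. The 5 with the largest share in series-level peaks were col-167 (36.6%), col-142 (34.3%), col-170 (33.4%), col-168 (32.9%) and col-145 (32.0%). None of these had a base in a replicate 1 peak, and replicate 2 peaks covered from 33.7% of the window in col-145 to 40.5% in col-142. By number of bases in replicate 2 peaks the first was col-159 in the centre of V, with 1444 bp, followed by col-142 with 843 bp, col-43 with 764 bp, col-167 with 757 bp and, level with each other, col-137 and col-160 with 755 bp. The bases of col-160 lie in a peak that col-159 shares. They too had no replicate 1 peak.

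The largest group of neighbouring collagen genes showed this split in every member. Collagen genes at gaps of up to 10 kb were counted as a group, which gave 21 groups with 50 genes. The only group of 4 or more lay in the centre of X and held col-167, col-168, col-169, col-170 and col-171 within 11.7 kb. Replicate 2 had a peak over each of the 5 genes, covering 39.7%, 39.2%, 38.1%, 39.6% and 29.1% of their windows in that order, and replicate 1 had none over any of them. The series-level list had a peak over each, from 23.8% of the window in col-171 to 36.6% in col-167, with highest scores of 4.78 to 7.83. The peaks did not run from gene to gene. In col-167 the replicate 2 peak ran from 6323634 to 6324390 and lay within the gene body.

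A bound group on the right arm of II shows the same placement in both replicates. There col-79, col-39 and col-80 lie within 4.68 kb. The replicate 1 peak over col-39 ran from 10705115 to 10705886 and the replicate 2 peak from 10705093 to 10705879, both inside the gene body. In col-80 the replicate 1 peak was 687 bp wide and the replicate 2 peak 734 bp. This group was chosen for display after its values were seen.

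**Figure D5:**
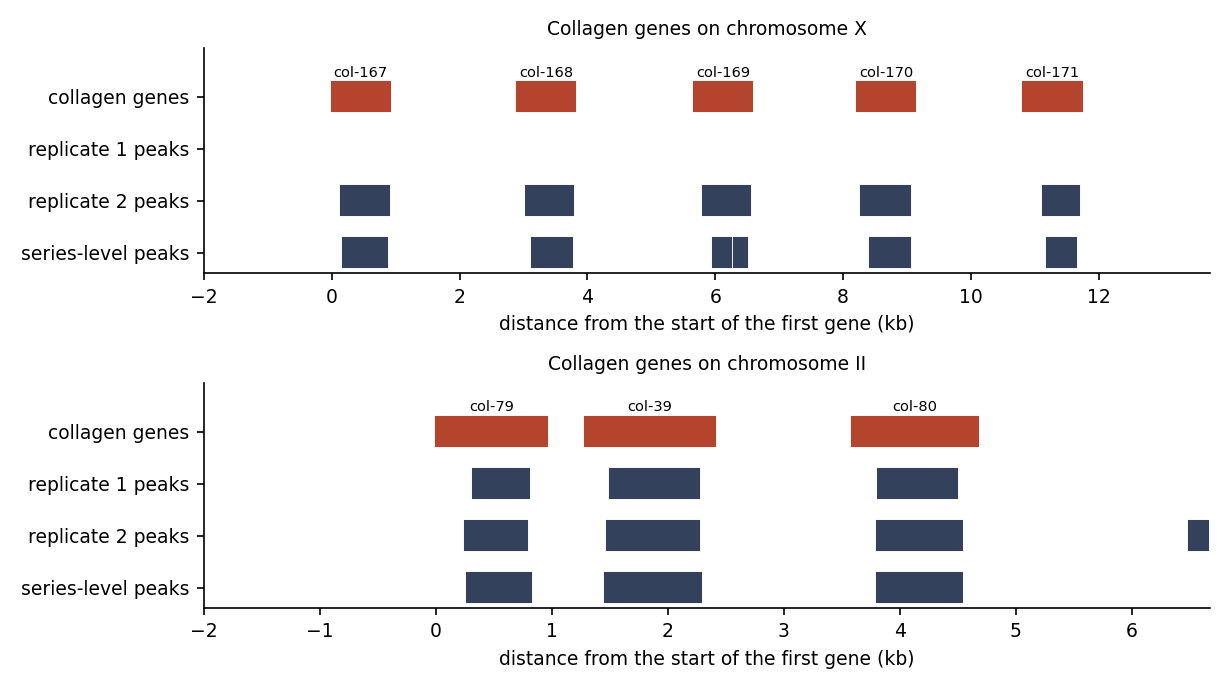
Map of 2 groups of neighbouring collagen genes (red boxes) with HPL-2 peaks (dark boxes) of replicate 1, replicate 2 and the series-level list, against the distance from the start of the first gene (kb). Over the 5 genes on X replicate 2 and the series-level list have peaks and replicate 1 has none; over the 3 genes on II all 3 lists have a peak on each gene. Genes are on WBcel235 and peaks on WS220, which may move them against each other slightly.

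Over all groups, whether grouped genes were bound more or less often depended on the list. Of 50 grouped collagen genes 15 were bound (30.0%, interval 19.1 to 43.8%) and of 109 lone ones 41 (37.6%, interval 29.1 to 47.0%), and these intervals overlap. In the replicate 2 list 100% of grouped and 85.3% of lone genes had a peak. The series-level list gave 94.0% and 66.1%, while replicate 1 gave 30.0% and 39.4%. Other genes of the same parts as all collagen genes were bound in 22.6% of cases. They had a peak in 28.0% in replicate 2, 39.3% in the series-level list and 35.3% in replicate 1. Grouped and lone genes were not matched for chromosome part or span. Of the 21 groups, 5 were fully bound, 13 had no bound gene and 3 were mixed. Most groups were pairs (15) and most grouped genes were not bound, and the number of like calls to expect was not computed. Neighbours can also share a peak, as col-46 and col-47 did in both replicate lists. The mixed groups held col-104 with col-105, col-144 with col-145 and col-10, and col-154 with col-155.

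Of 12 collagen genes listed for known roles, 11 were in the table (col-1 was not found) and 4 were bound. That share, 36.4%, was close to the 35.2% of all collagen genes, beside the background of 24.6%. col-19, an adult cuticle collagen switched on by the transcription factor LIN-29, had 30.3% of its window in a replicate 2 peak and 25.7% in a series-level peak, and nothing in replicate 1. col-10, a larval and adult cuticle collagen, was bound, with 18.9% in replicate 1 and 35.1% in replicate 2. col-40 was bound, with 23.8% and 30.9%. col-2, a collagen best known from the dauer stage, was called bound, yet its replicate 1 peak of 165 bp lay outside the gene body while its replicate 2 peak of 579 bp lay inside. col-99 was the fourth bound gene.

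The remaining 7 were not bound. col-13 had 33.0% of its window in replicate 2, col-17 29.1%, col-63 21.3% and col-49 18.7%, and none of these had a replicate 1 peak. col-120 had no peak in any list. col-38 was the exception, with 11.1% of its window in a replicate 1 peak and none in replicate 2. Its series-level peak, from 8569354 to 8569584 on II (231 bp), lay outside the gene body and had a score of 67.25, above the highest score in the windows of most bound collagen genes.

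Cuticle collagens named for their mutant phenotypes were not members but belong to the same pathway. Of 21 listed, 20 were found and 11 were bound (55.0%), beside the background of 24.6%, with a median span of 1209 bp, close to that of the col genes. Replicate 2 had a peak in 14 of them and replicate 1 in 12, beside backgrounds of 30.4% and 37%. dpy-7, a collagen of the furrows of the cuticle, had 35.0% of its window in replicate 1 peaks and 19.4% in replicate 2. sqt-3, needed for body shape, had 22.5% in replicate 1 and 23.3% in replicate 2. dpy-3, dpy-4, dpy-5, dpy-13, rol-8, sqt-1, sqt-2, bli-6 and lon-3 were also bound, at 17.7 to 39.9% of their windows in series-level peaks. rol-6, dpy-17 and bli-1 had replicate 2 peaks without one in replicate 1, and dpy-8 had a replicate 1 peak without one in replicate 2. dpy-2 and dpy-9 had a series-level peak alone, and dpy-10, dpy-14 and bli-2 had none in any list.

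Of 4 listed basement membrane and other collagens none was bound, beside the background of 24.6%, and 4 genes are too few to set against that share. let-2 and emb-9, the chains of type IV collagen, had 11 and 4 replicate 2 peaks, covering 27.3% and 10.9% of their windows, and no replicate 1 peak. cle-1, the type XV/XVIII collagen, had 1 replicate 2 peak and none in replicate 1. mec-5 had no peak in any list.

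Genes that process collagens were bound in 10 of 21 cases (47.6%, beside the background of 24.6%) and had a median span of 4492 bp, so their windows are wider. dpy-18 and phy-2, catalytic subunits of prolyl 4-hydroxylase, had 49.4% and 13% of their windows in replicate 1 peaks and 41.2% and 2.58% in replicate 2. pdi-2, the partner subunit of that enzyme, had 54.2% in replicate 1 and 25.9% in replicate 2. bli-4, a proprotein convertase, had 22.5% and 21.1%. phy-3, phy-4, mlt-11, dpy-11, sec-23 and cyn-5 were also bound. In this list replicate 1 had a peak in 13 genes and replicate 2 in 10, the order seen over all other protein-coding genes (37% and 30.4%) and the reverse of that in the col genes.

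Regulators of moulting and of cuticle genes were bound in 12 of 18 cases (66.7%, beside the background of 24.6%), with a median span of 6738.5 bp. The nuclear receptor nhr-23, a driver of moulting, had 66.8% of its window in replicate 1 peaks and 12.6% in replicate 2. grh-1, a Grainyhead factor of the epidermis, had 70.6% and 33.9%. lin-42, the worm relative of period, had 67.9% and 24.3%, and lin-29 had 29.8% and 4.03%. nhr-25, blmp-1, elt-3, lin-14, nhr-41, nhr-85, peb-1 and myrf-1 were bound as well. Replicate 1 covered more of the window than replicate 2 in each of these 12 genes, the usual order, since it did so in 74.3% of other bound genes. Among bound col genes it did so in 15 of 56. Wider spans meet a peak more easily, and comparison genes of the same span were not used for these lists.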

How the data were processed

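Reads were mapped with BWA to ce10, per the submitters' processing notes, and peaks were called with MACS on WormBase WS220, per the file headers and source column. For the version, threshold and control of MACS, for multiply mapping reads and for how the series-level list was made, the value is not given in the sources used here. The deposited peak score has no stated scale. Peak positions, counted from 1, and scores were used as deposited by the authors.

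Samples were grouped by their titles. Genes came from RefSeq (WBcel235), without strand. The builds may differ slightly, so windows were also widened and moved by 150 bp. No gene coordinate is printed. Chromosome length was the largest peak end over the 3 lists. Overlaps were computed in Python 3.11.15 with numpy 2.4.6, pandas 2.3.3 and scipy 1.17.1, and checked against bedtools and on simulated lists. Comparison shares are means over chromosome parts weighted by the collagen genes in each.

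The members, lists and rules were chosen with earlier results of these data known. Genes are named by coverage (10 most and 5 least covered bound genes, 5 unbound by series-level share and 5 by replicate 2 bases), by groups of 4 or more, and from listed genes. No label ties the replicates to different cultures, so their spread may be technical. The planned gene start window and promoter motifs were not run, since strand and sequences were not used here.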

Additional observations from a re-analysis of the deposited data

How the results depend on the processing

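Of 101 alternative values for 6 results, 88 kept the direction and moved by less than the SD of the 2 replicate lists (or, for the pathway count, by under 1.5 times). Another 9 kept the direction and moved further, and 4 changed direction. That SD is very wide for the bound share and its difference, so it is a weak yardstick. The bound share of collagen genes was 74.8% with the series-level list alone and 89.9% with the replicate 2 list alone, and ran from 36.5 to 73.6% with 1 replicate left out. Its difference from comparison genes was 61.9 percentage points with the replicate 2 list alone, ran from 1.58 to 48.6 with 1 replicate left out, and turned to -1.39 with the 10000 highest-scoring peaks of each list. The difference in bases covered by series-level peaks, 12.9 points, was 26.0 in gene bodies alone, 2.87 with peaks at or above the median score, 3.1 with replicate 1 peaks and 1.98 with the 10000 highest-scoring peaks. Collagen genes on arms exceeded those in centres by 18.1 points with peaks at or above the median score, 19.8 with the replicate 2 list alone and 17.7 with the middle of 5 equal parts as the centre, while leaving out 1 replicate gave 26.5 to 26.7. Grouped minus lone genes, -7.61 points in all 3 lists, turned to 27.9 with the series-level list alone and 14.7 with replicate 2 alone, and ran from -9.45 to 29.8 with 1 replicate left out. The pathway lists had 18 bound genes at or above the median score, against 33. The cause was not tested. Widening or moving the windows by 150 bp, which covers the shift between builds, left the bound share between 34.6 and 35.8%, and using 500 bp on 1 side gave 32.7 and 33.3%. The 15 values for sides, fixed windows, spans and the top 10000 peaks were added after the data were seen. No paired analysis was possible because, of each numbered ChIP and input pair, the input was not analysed here. Peak lists hold no reads, and signal under the unstated calling threshold is not seen.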

Other observations

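Gene families were compared for the gap between the replicate lists, a comparison chosen after the data were seen and made without a test. Of 91 families with at least 20 protein-coding members of one symbol stem, the col family had the largest gap in favour of replicate 2, with 89.7% of its 156 coding members under a replicate 2 peak and 36.5% under a replicate 1 peak (53.2 percentage points). The next family, nep (neprilysin peptidases, 23 genes), had 52.2% and 34.8%. Histone genes (his, 72 genes) had peaks in both lists, at 93.1% and 84.7%, and were the only family with a higher share than col in replicate 2. The families with the largest gap in the opposite direction were the ribosomal protein genes rps (27 genes, 29.6% in replicate 2 and 63% in replicate 1) and rpl (31 genes, 35.5% and 67.7%). Their median spans were 732 and 795 bp. After them came vps (28 genes, 32.1% and 64.3%), with a longer median span of 3640 bp. The cause of these gaps was not tested.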
